A study of Mus musculus with 6 samples.

Results

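Integrins are cell-surface receptors made of an alpha and a beta subunit, and focal adhesion adaptors are the cytoplasmic proteins that tie their tails to actin and to signalling kinases. The 38 genes described here, taken by their symbols, are 18 alpha subunits, 8 beta subunits and 12 adaptors. All 38 were among the 45038 genes of the deposited table. The expression filter, 1 FPKM or more in 3 or more of 6 libraries, was passed by 21 of them and by 10168 genes altogether. FPKM counts fragments per kilobase of transcript, scaled to the library's size, and genes of a library were set side by side on that scale. The RNA was amplified by T7 transcription, and evenness of coverage along transcripts was not tested. Levels of different genes within a library are thus compared only approximately.

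The study sequenced RNA of sorted heart cells from C57BL/6 mice carrying a Tie2-Cre transgene and the Rosa-LSL-tdTomato reporter. The Tie2 promoter drives Cre in endothelial cells and also in part of the blood lineage. The MI group is 3 libraries of infarct tissue, taken 3 weeks after ligation of the left anterior descending artery in mice 6 to 8 weeks old. The Normal group is 3 libraries of normal left ventricle from mice labelled as without MI surgery. Cells of all 6 libraries carried the Cre and the reporter and were sorted as tdTomato+ and F4/80-. The titles number the libraries of each group Ms1535, Ms1537 and Ms1608, and values below follow that order. Separate mice are not stated for the samples of a group, so p-values reflect only the spread among these libraries.

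The labelled cell identity was checked against markers before the integrins were read. The summed FPKM of 11 endothelial markers was 279 to 1109 in MI, 1299.5 and 921 in Normal Ms1535 and Ms1537, and 37.9 in Normal Ms1608. Egfl7 made up most of the sum in each library but Normal Ms1608. Pecam1 alone was highest in Normal Ms1608, at 28.3 FPKM, most of the sum there, and every other endothelial marker was lowest there. For 6 pan-leukocyte markers the sum was 1866 to 2239 in MI, 260.2 and 387 in Normal Ms1535 and Ms1537, and 3589 in Normal Ms1608. Cd52 made up most of this sum in each library, with 2827 FPKM in Normal Ms1608. Laptm5 was lower in Normal Ms1608 (95.5 FPKM) than in MI Ms1535 (116 FPKM) and MI Ms1608 (206 FPKM). Every other pan-leukocyte marker was highest in Normal Ms1608. The median log2 level of the list was 7.33 there, close to 7.20 in MI Ms1608. No marker of these lists was at 0 in any library. Normal Ms1608 thus stood apart from the other Normal libraries, and each limma difference is given with and without it. Fewer cells of a type and less RNA per cell cannot be told apart in bulk samples. The depth implied by the low FPKM values was 34.8 to 47.7 M fragments per library, more than the read number in the labels' protocol, which was not reconciled.

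As background, beta tails bind talin and kindlin, which switch a receptor on, and the alpha subunit largely sets the ligand. Chains Itgb2 and Itgb7 are found on leukocytes, where their receptors bind ICAMs, VCAM or complement fragments, whereas receptors with Itgb1 or Itgav bind collagen, laminin, fibronectin or vitronectin. Endothelial cells rest on laminin-rich basement membrane partly through Itga6, and Itgav receptors can release TGF-beta from its latent complex.

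With all libraries, limma called 0 of the 21 tested members at an adjusted p below 0.05, against 0.00983% of all tested genes (1 gene). At an unadjusted p below 0.05, 2 of 21 (Itgav and Itgax) were higher in MI, beside 16.1% of genes, and 0 were lower, beside 0.207%. Itgax reached 1 FPKM in the MI libraries only, so it passed the filter through the group where it was high. Its direction, here and in the count of ranges below, thus partly follows from the filter. The difference of log2(FPKM + 1), MI minus Normal, was above 0 for 20 of 21 members and for 87.2% of genes. Its median was 0.83 over the members and 0.78 over all genes, so the members lay close to genes in general. Scaling by median ratio, by upper quartile and by quantiles put the median of all genes at -0.028, 0.20 and -0.042, lowered the difference of each of the 21 members, and left 12, 15 and 10 members above 0. All MI libraries stood above all Normal libraries in 3 of the 21 (Itgav, Itgax and Itgb5; among untested members also Itga10) beside 25% of genes, and below them in 0, beside 0.354%.

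Without Normal Ms1608, 6 of the 21 members passed the limma threshold, against 4.51% of genes (459 genes): Itgal, Itgam, Itgb2, Itgb7, Itga4 and Itgav, all higher in MI. None of the 6 calls held once the remaining libraries were also scaled: by any of the 3 scalings, 0 members and 2 or 3 genes passed, with the lowest member adjusted p between 0.111 and 0.133. With these scalings 7 members were higher and 3 lower at an unadjusted p below 0.05, the lower ones being Fermt2, Itga1 and Itga6. Under median-ratio, upper-quartile and quantile scaling in turn, 9.31%, 9.27% and 8% of all genes were higher at that level and 8.72%, 8.76% and 7.95% lower. Without scaling, 10 members were higher at an unadjusted p below 0.05, beside 30.8% of genes, and 0 lower, beside 0.738%. The difference was above 0 for 16 members, beside 87.7% of genes. MI libraries were all above the other 2 Normal libraries in 10 members, beside 52.6%, and all below them in 1, Fermt2, beside 1.75%. Among the libraries left, Itga4, Itgax and Fermt3 reached 1 FPKM in MI only, and Itgae in MI Ms1535 and Ms1537 only. Their direction in the counts without Normal Ms1608 thus partly follows from the filter.

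**Figure D1:**
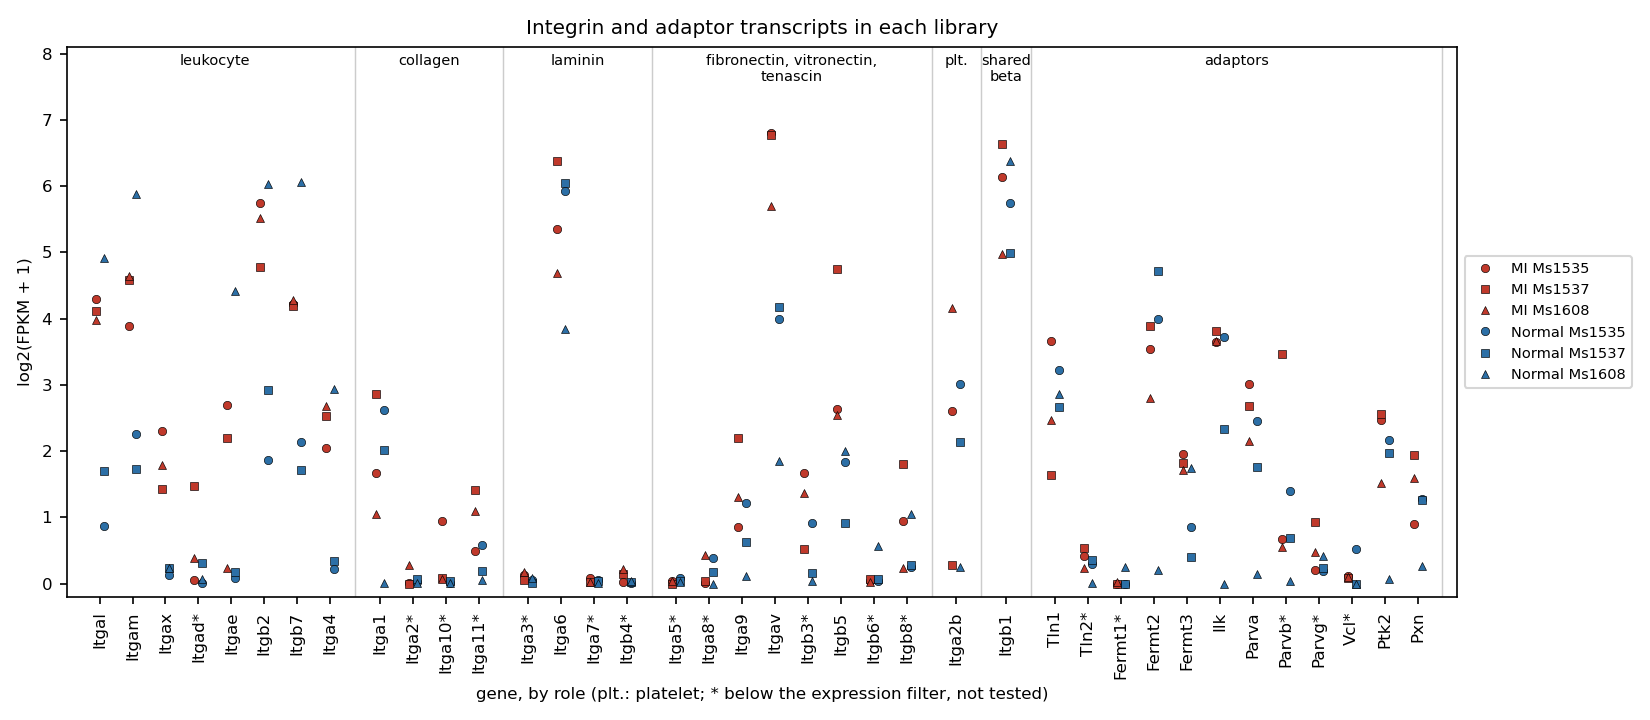
The log2(FPKM + 1) of all 38 genes (vertical axis), ordered by role (horizontal axis), with 1 point per library, red for MI and blue for Normal, and a marker shape for each number in the titles. In Normal Ms1608 (blue triangles) Itgal, Itgam, Itgae, Itgb2, Itgb7 and Itga4 lay above all other libraries, while Itgav, Itga6, Fermt2 and Ilk lay below them.

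Itgal and Itgb2 form LFA-1, with which leukocytes hold on to ICAMs. Itgb2, the chain shared by the CD11 receptors, stood at 52.8, 26.4 and 44.9 FPKM across MI and 2.65, 6.55 and 64.1 FPKM across Normal. Itgal stood at 18.7, 16.4 and 14.8 FPKM across MI and 0.829, 2.25 and 29.1 FPKM across Normal. For both genes every MI library was above Normal Ms1535 and Ms1537 and below Normal Ms1608. The difference of Itgb2 came to 1.75 on the log2 scale (SE 1.02, adjusted p 0.392 in limma) and without Normal Ms1608 to 2.96 (SE 0.53, adjusted p 0.0282). Itgal differed by 1.64 (SE 1.00, adjusted p 0.407 in limma) and without Normal Ms1608 by 2.85 (SE 0.50, adjusted p 0.0257). Leaving out Normal Ms1535 instead gave 0.88 and 0.83, and the 3 scalings of all libraries gave 0.73 to 1.31 and 0.71 to 1.14. With Normal Ms1608 left out and median-ratio scaling, the values were 1.99 (adjusted p 0.166) and 2.02 (adjusted p 0.125).

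Itgam and Itgax encode the myeloid chains CD11b and CD11c, which pair with Itgb2 and lie near each other on chromosome 7 (chr7:128062640-128118491 and chr7:128129547-128150657, plus strand, GRCm38). Itgam stood at 13.7, 22.9 and 24.1 FPKM across MI and 3.77, 2.32 and 57.8 FPKM across Normal, highest in Normal Ms1608. Itgax stood at 3.92, 1.69 and 2.47 FPKM across MI and 0.0893, 0.178 and 0.172 FPKM across Normal. In contrast to Itgam, its level in Normal Ms1608 lay within the range of the other Normal libraries. Itgax passed the filter through the MI libraries alone. The Itgax difference was 1.64 (SE 0.39, adjusted p 0.245 in limma) and 1.66 without Normal Ms1608 (adjusted p 0.0566), and its groups overlapped after quantile scaling but not after the other scalings. Itgam differed by 1.08 (SE 1.04, adjusted p 0.601 in limma) and without Normal Ms1608 by 2.38 (SE 0.50, adjusted p 0.0394). Itgam was 0.30 without Normal Ms1537 and 0.10 to 0.60 under the 3 scalings, and Itgax 0.71 to 1.34. Itgad, another chain of this cluster, reached 1.76 FPKM in MI Ms1537 and at most 0.3005 FPKM elsewhere, and was not tested.

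The windows upstream of Itgav, Itgam and Itgax are shown because Itgav and Itgax had the lowest p among the members, and because Itgam departs from its neighbour Itgax in Normal Ms1608. RefSeq promoter windows (GRCm38.p6) were found for 26 of the 38 members. Each sequence is the 250 bases before the RefSeq start, on the plus strand, at chr2:83724147-83724396, chr7:128062390-128062639 and chr7:128129300-128129549. Capitals mark GAGGAA, the core of a PU box, which the myeloid factor PU.1 can bind, and GGGCGG, a GC box, on either strand (TTCCTC and CCGCCC where the match is on the other).
Itgav: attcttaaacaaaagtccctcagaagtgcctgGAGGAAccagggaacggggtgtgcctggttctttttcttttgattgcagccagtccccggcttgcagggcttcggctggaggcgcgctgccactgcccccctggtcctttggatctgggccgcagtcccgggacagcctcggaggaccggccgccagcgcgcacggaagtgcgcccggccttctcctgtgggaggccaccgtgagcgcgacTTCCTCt
Itgam: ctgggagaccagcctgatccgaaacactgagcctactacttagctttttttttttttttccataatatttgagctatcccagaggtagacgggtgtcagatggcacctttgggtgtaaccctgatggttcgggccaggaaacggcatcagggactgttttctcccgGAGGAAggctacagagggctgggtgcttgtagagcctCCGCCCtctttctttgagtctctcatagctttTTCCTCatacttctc
Itgax: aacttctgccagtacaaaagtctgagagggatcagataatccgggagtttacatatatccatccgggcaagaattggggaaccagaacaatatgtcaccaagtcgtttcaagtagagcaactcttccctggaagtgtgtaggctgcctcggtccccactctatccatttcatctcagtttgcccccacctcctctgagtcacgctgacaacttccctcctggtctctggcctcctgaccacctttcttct
The Itgam window held GAGGAA at 84 to 79 bases before the start and, on the other strand, at 15 to 10 bases, with a GC box at 47 to 42 bases. The Itgav window held GAGGAA at 218 to 213 bases and, on the other strand, at 7 to 2 bases. Neither string was in the Itgax window. Of all 32851 windows of this length, 23.3% held GAGGAA and 32.7% held GGGCGG on either strand, and of the members' 30 windows 33.3% and 43.3% did. The strings marked here do not overlap, and a match describes letters only.

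Itgb7 and Itga4 form a receptor for MAdCAM, and Itga4 with Itgb1 binds VCAM. Itgb7 stood at 17.7, 17.2 and 18.4 FPKM across MI and 3.42, 2.27 and 65.6 FPKM across Normal, with a narrow MI range. Itga4 stood at 3.14, 4.78 and 5.39 FPKM across MI and 0.166, 0.264 and 6.65 FPKM across Normal. In both, MI lay between the low Normal libraries and Normal Ms1608. The log2 differences were 0.93 and 1.25 (adjusted p 0.671 and 0.411 in limma), and without Normal Ms1608 2.30 and 2.14 (adjusted p 0.0355 and 0.0369). Without that library Itga4 reached 1 FPKM in MI only, so its direction there partly follows from the filter. Median-ratio scaling of all 6 libraries put Itgb7 at -0.046. Itgae, the CD103 chain of resident T cells and some dendritic cells, stood at 5.46, 3.57 and 0.181 FPKM across MI and 0.0568, 0.125 and 20.4 FPKM across Normal, so the groups overlapped. It differed by 0.15 (SE 1.13, adjusted p 0.957 in limma), was negative under the 3 scalings, and was 1.58 without Normal Ms1608 (adjusted p 0.147).

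Markers of leukocyte classes were read beside these genes. Neutrophil markers (5 genes) summed to 4533 to 12009.9 FPKM in MI, 2473 and 2081 in Normal Ms1535 and Ms1537, and 13379 in Normal Ms1608. T and NK markers (7 genes) summed to 139.9 to 292 FPKM in MI, 13.2 and 37.8 in Normal Ms1535 and Ms1537, and 337 in Normal Ms1608. B cell markers (4 genes) summed to 80.4 to 197 FPKM in MI, 16.8 and 18.8 in Normal Ms1535 and Ms1537, and 423 in Normal Ms1608. These 3 sums were highest in Normal Ms1608, but a few abundant genes carry them there. They were S100a8 and S100a9 for neutrophils, Cd3d and Nkg7 for T and NK cells, and Cd79b and Ms4a1 for B cells. By the median log2(FPKM + 1) of its genes, the neutrophil list was higher in MI Ms1537 (8.64) and MI Ms1608 (8.78) than in Normal Ms1608 (8.26), and the T and NK list was higher in MI Ms1537 (5.39) than in Normal Ms1608 (4.64). Macrophage markers (5 genes) summed to 19.1 to 99.3 FPKM in MI and 5.66 to 107 FPKM in Normal. Adgre1, the F4/80 gene, was at 7.21 FPKM or less. Mrc1, at 95.2 FPKM, made up most of the sum in Normal Ms1608. By the median log2(FPKM + 1) of its genes, the macrophage list was higher in every MI library than in any Normal library (at most 1.91, in Normal Ms1608). Adgre1, Csf1r and C1qa were each higher in all MI libraries, while Cd68 and Mrc1 overlapped between groups. Dendritic markers (5 genes) summed to 12.5 to 32.9 FPKM in MI and 21.4 to 75.0 FPKM in Normal. Most of the Normal sums was Zbtb46 in Normal Ms1535 and Ms1537 (22.5 and 19.6 FPKM) and Cd209a in Normal Ms1608 (65.0 FPKM). Zbtb46 was lowest in Normal Ms1608 (0.149 FPKM), like every endothelial marker but Pecam1, and its cell source was not tested. The median log2(FPKM + 1) of the dendritic list overlapped between groups, with MI Ms1608 (0.409) below Normal Ms1537 (0.511). Mast cell markers (4 genes) summed to 2.39 to 415 FPKM in MI and 1.17 to 81.9 FPKM in Normal. The part of these cells in the integrin values was not tested.

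Relative to Ptprc, the pan-leukocyte antigen CD45, no leukocyte integrin was higher in all MI libraries. Itgb7 per Ptprc was 0.258, 0.220 and 0.243 in MI and 1.09, 0.481 and 0.377 in Normal. Itgam per Ptprc was 0.200, 0.293 and 0.317 in MI and 1.20, 0.492 and 0.333 in Normal. In both, all MI libraries lay below all Normal libraries, with an exact two-sided permutation p of 0.1, the smallest that 3 against 3 can give, and 0.4 adjusted over 8 genes. Divided instead by the geometric mean of the 6 pan-leukocyte markers, both genes overlapped between groups, with Normal Ms1537 within the MI range. Itgal per Ptprc was 0.226 ± 0.0408 in MI and 0.303 ± 0.158 in Normal (SD, n = 3 each, exact permutation p = 0.7). Itgb2 per Ptprc was 0.567 ± 0.216 and 0.868 ± 0.510 (SD, n = 3 each, exact permutation p = 0.4). Itgax per Ptprc was 0.0571, 0.0217 and 0.0325 in MI and 0.0286, 0.0377 and 0.000990 in Normal, lowest in Normal Ms1608.

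**Figure D2:**
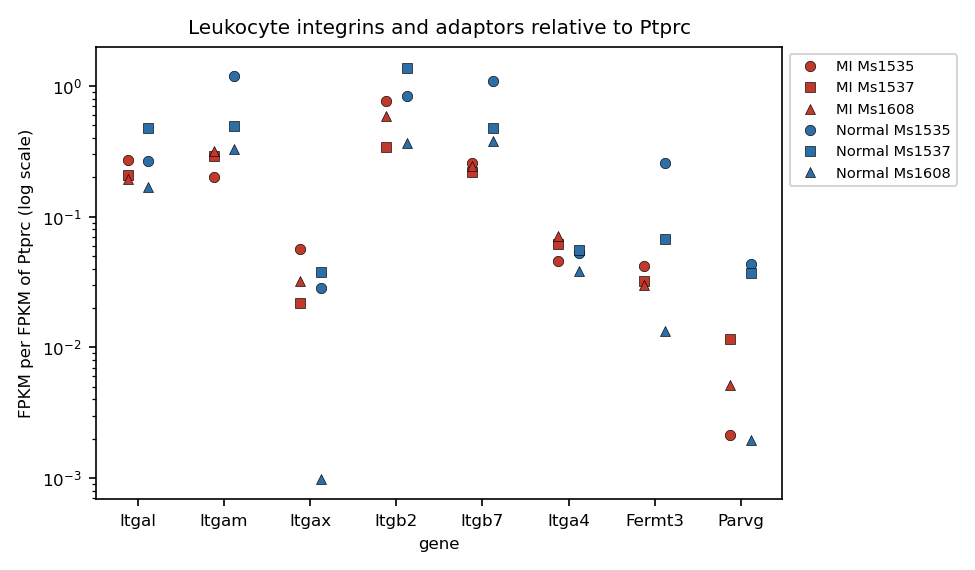
FPKM of 8 leukocyte integrins and adaptors divided by the FPKM of Ptprc in the same library (vertical axis, log scale), with 1 point per library for each gene (horizontal axis), red for MI and blue for Normal. By this ratio Itgam and Itgb7 were lower in all 3 MI libraries than in any Normal library, but not relative to the 6 pan-leukocyte markers. Itgax per Ptprc was lowest in Normal Ms1608.

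Itgav encodes the alpha V chain, which pairs with several beta chains to bind vitronectin, fibronectin and latent TGF-beta (chr2:83724397-83806916, plus strand, GRCm38). It stood at 110.2, 108 and 51.0 FPKM across MI and 15.0, 17.0 and 2.61 FPKM across Normal. The lowest MI library was above the highest Normal library, also after each of the 3 scalings. The difference was 3.08 (SE 0.80, adjusted p 0.245 in limma), and 2.05 to 2.33 under the 3 scalings. It was the highest of the 21 with all libraries and a pseudocount of 1, but Itgax was higher with a pseudocount of 0.1, and Itgb2, Itgal and Itgam were higher without Normal Ms1608. Without that library Itgav was 2.34 (SE 0.49, adjusted p 0.0394), and with median-ratio scaling as well 1.29 (adjusted p 0.149).

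Itga6 encodes the laminin-binding alpha 6 chain (chr2:71745616-71858416, plus strand, GRCm38). It stood at 40.02, 82.2 and 24.7 FPKM across MI and 59.7, 65.3 and 13.4 FPKM across Normal, so the groups overlapped. The difference was 0.20 (95% interval -1.61 to 2.01, adjusted p 0.915 in limma), -0.51 without Normal Ms1608 (adjusted p 0.501), and negative under the 3 scalings. The other laminin receptor chains, Itga3, Itga7 and the hemidesmosomal Itgb4, did not exceed 0.166 FPKM in any library.

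Within a library, where scaling cancels, the order of these alpha chains differed between the groups. The log2 ratio of Itgav to Itga6 was 1.46, 0.39 and 1.04 in MI and -1.99, -1.94 and -2.36 in Normal. By FPKM, every MI library held more Itgav than Itga6 and every Normal library less, Normal Ms1608 included. The mean log2 ratio was 0.97 ± 0.54 against -2.10 ± 0.23 (SD, n = 3 each, exact two-sided permutation p = 0.1, the smallest possible). The pair was chosen after its values were seen. Itgav held 53.8%, 42.6% and 35.4% of the summed FPKM of the 18 alpha chains in MI, more than any other chain. Itga6 led in Normal Ms1535 and Ms1537, with 63.5% and 68.7%, and Itgam in Normal Ms1608, with 44.3%.

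**Figure D3:**
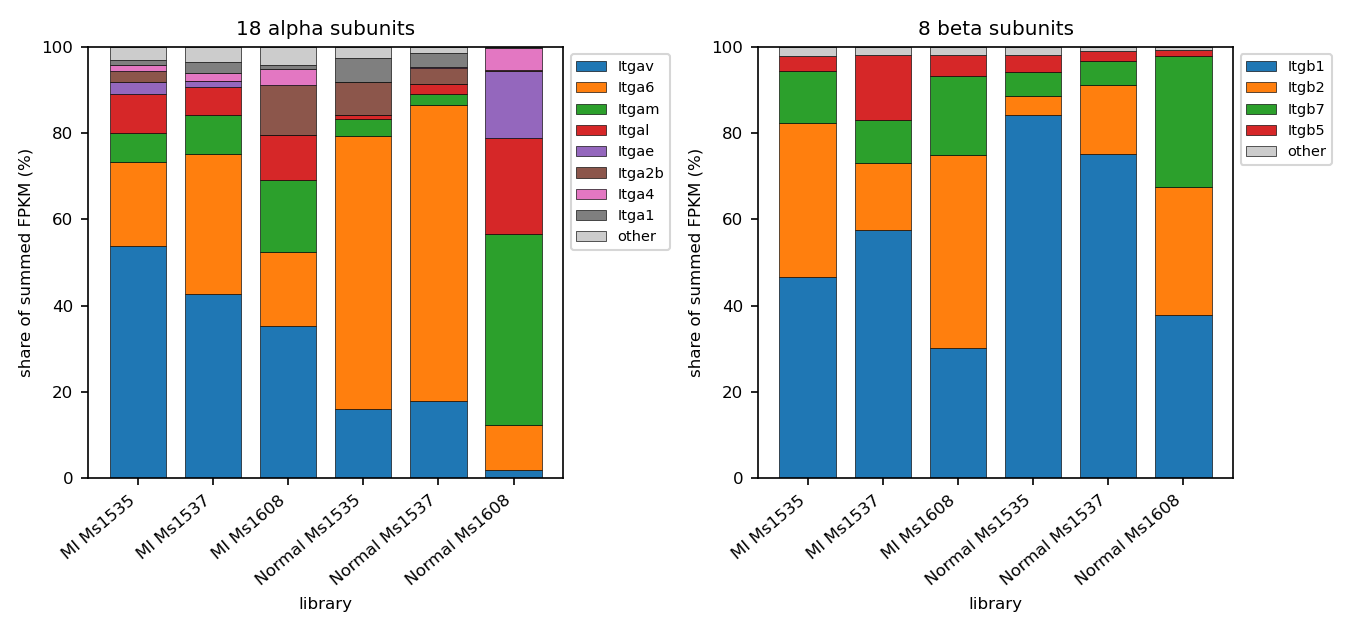
Share of the summed FPKM (vertical axis, percent) of the 18 alpha subunits (left) and of the 8 beta subunits (right) in each library (horizontal axis), stacked by gene, with the remaining genes in grey. Itgav leads the alpha chains in the 3 MI libraries and Itga6 in Normal Ms1535 and Ms1537, while Itgam and Itgal lead in Normal Ms1608.

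Among the beta partners of Itgav, Itgb5, which forms a vitronectin receptor, stood at 5.20, 25.8 and 4.82 FPKM across MI and 2.58, 0.883 and 3.01 FPKM across Normal. MI lay above Normal as deposited, but the groups overlapped after each of the 3 scalings. The difference was 1.72 (SE 0.79, adjusted p 0.308 in limma) and 1.93 without Normal Ms1608 (adjusted p 0.125), but 1.00 without MI Ms1537, its highest library, and 0.85 to 1.16 under the 3 scalings. Itgb3, the beta chain of the vitronectin and platelet receptors, stood at 2.17, 0.436 and 1.57 FPKM across MI and 0.875, 0.112 and 0.0237 FPKM across Normal. Itgb8, whose receptor binds latent TGF-beta, stood at 0.929, 2.499 and 0.179 FPKM across MI and 0.186, 0.220 and 1.06 FPKM across Normal. Itgb6, an epithelial chain, lay between 0.0124 and 0.486 FPKM. These last chains were below the filter, and their groups overlapped.

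Other receptors for fibronectin and tenascin were low. Itga5, the alpha chain of the classical fibronectin receptor, was listed at 0 in MI Ms1537 and did not exceed 0.0548 FPKM elsewhere. Itga8, which binds nephronectin and fibronectin, reached at most 0.343 FPKM. A 0 in this table can be a failed estimate. Itga9, a receptor chain for tenascin C, stood at 0.808, 3.57 and 1.47 FPKM across MI and 1.33, 0.538 and 0.0793 FPKM across Normal, which overlap, with a difference of 0.80 (SE 0.48, adjusted p 0.403 in limma) and of 0.53 without Normal Ms1608.

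Of the 4 collagen receptor chains, Itga1 alone passed the filter. It binds basement membrane and fibrillar collagens and stood at 2.18, 6.26 and 1.07 FPKM across MI and 5.16, 3.05 and 0.00458 FPKM across Normal, lowest in Normal Ms1608. Its difference was 0.31 (adjusted p 0.863 in limma), and -0.46 without Normal Ms1608 (adjusted p 0.588). Itga11, a fibrillar collagen receptor of fibroblasts, stood at 0.403, 1.65 and 1.14 FPKM across MI and 0.4998, 0.141 and 0.0389 FPKM across Normal. Itga10 reached 0.929 FPKM in MI Ms1535 and at most 0.0646 FPKM elsewhere, and Itga2, a platelet and epithelial collagen receptor chain, at most 0.214 FPKM. Fibroblast markers (8 genes) summed to 927 to 5586 FPKM in MI and 189 to 909 FPKM in Normal, and their part in Itgav, Itgb5 and Itga11 was not tested. Pericyte and smooth muscle markers (7 genes) summed to 12.5 to 33.0 and 0.678 to 26.4 FPKM, and cardiomyocyte markers (7 genes) to 146 to 966 and 8.64 to 789 FPKM.

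Itgb1, the beta chain shared by collagen, laminin and fibronectin receptors, stood at 69.3, 98.5 and 30.4 FPKM across MI and 52.5, 30.7 and 81.8 FPKM across Normal. The groups overlapped, with a difference of 0.22 (95% interval -1.37 to 1.80, adjusted p 0.896 in limma) that was negative under the 3 scalings and 0.55 without Normal Ms1608. Its share of the summed FPKM of the 8 beta chains was 46.8%, 57.6% and 30.3% in MI and 84.3%, 75.2% and 37.9% in Normal. MI shares lay below those of Normal Ms1535 and Ms1537, and Normal Ms1608 lay inside the MI range (exact two-sided permutation p = 0.3, 0.4 adjusted over the 8 chains). With Itgb2 and Itgb7 left out of the sum, the Itgb1 share was lower in every MI library than in any Normal library, which was not tested.

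Itga2b, the platelet and megakaryocyte chain that pairs with Itgb3 to bind fibrinogen, stood at 5.08, 0.209 and 16.8 FPKM across MI and 7.03, 3.40 and 0.184 FPKM across Normal, varying widely within groups. It differed by 0.55 (SE 1.05, adjusted p 0.814 in limma), and by -0.23 without Normal Ms1608. Platelet markers (6 genes) summed to 42.7 to 70.4 FPKM in MI and 3.60 to 33.1 FPKM in Normal. Most of the sum in every library was the platelet chemokine Pf4, at 35.1, 68.2 and 59.2 FPKM across MI and 15.1, 30.6 and 2.27 FPKM across Normal. The median log2(FPKM + 1) of the list overlapped between groups, and Gp9 was listed at 0 in 3 libraries. The part of platelets in Itga2b was not tested.

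**Figure D4:**
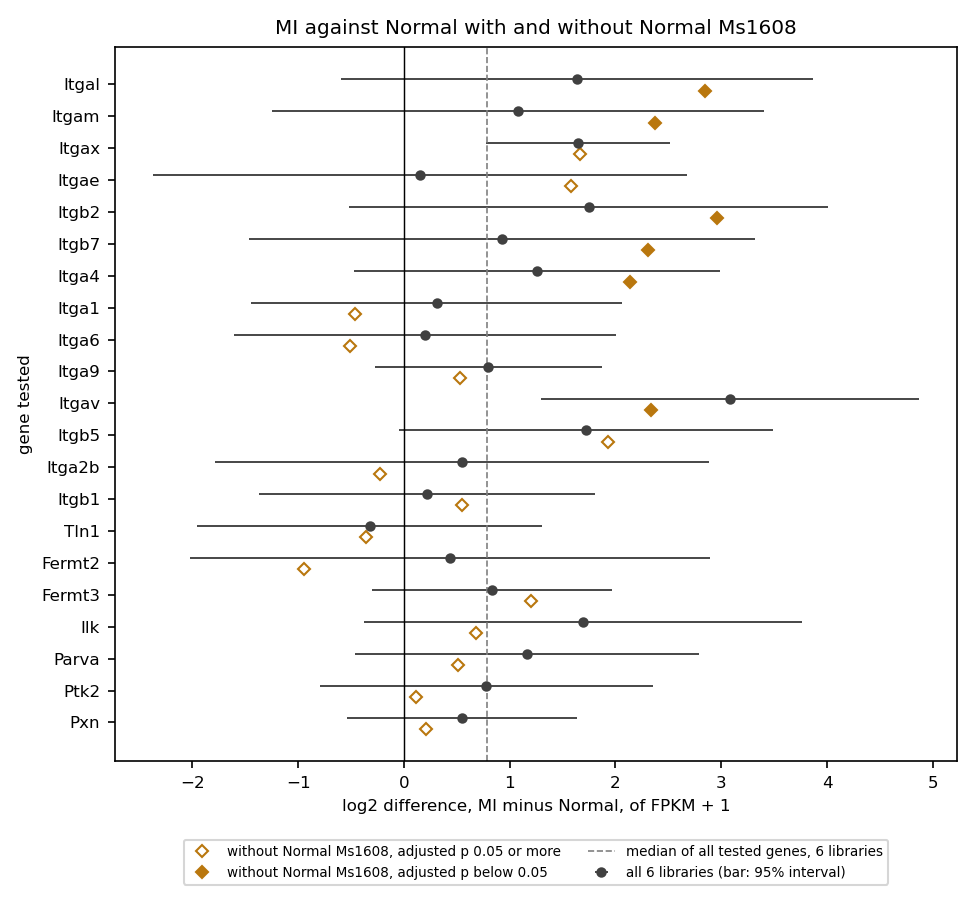
Log2 difference of FPKM + 1, MI minus Normal (horizontal axis), of the 21 tested genes (vertical axis), with all 6 libraries (circles, bars for the 95% interval) and without Normal Ms1608 (diamonds, filled where the adjusted p was below 0.05). The dashed line is the median of all tested genes. Leaving out Normal Ms1608 moved the leukocyte chains to the right and Itga1, Itga6, Itga2b and Fermt2 to the left of 0, and the 6 filled diamonds were not called after any of the 3 scalings.

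Of the 12 adaptors, 7 passed the filter, and limma called 0, beside 0.00983% of all tested genes. At an unadjusted p below 0.05, 0 of the 7 were higher and 0 lower in MI, beside 16.1% and 0.207% of genes. Kindlins bind beta tails together with talin. Fermt2, the kindlin of adherent cells, stood at 10.6, 13.7 and 6.00 FPKM across MI and 14.9, 25.3 and 0.154 FPKM across Normal. MI lay below Normal Ms1535 and Ms1537 and above Normal Ms1608, so the difference was 0.44 (adjusted p 0.862 in limma) but -0.95 without that library (adjusted p 0.233). Fermt3, the kindlin of blood cells, stood at 2.88, 2.52 and 2.28 FPKM across MI and 0.8005, 0.321 and 2.33 FPKM across Normal. It differed by 0.83 (SE 0.51, adjusted p 0.407 in limma), by 1.20 without Normal Ms1608 (adjusted p 0.0973), and by -0.024 after quantile scaling of all libraries. Fermt1, the epithelial kindlin, did not exceed 0.194 FPKM.

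Ilk and the parvins form a complex that links beta tails to actin. Ilk, its pseudokinase, stood at 11.5, 13.1 and 11.7 FPKM across MI and 12.2, 4.05 and 6.89e-15 FPKM across Normal. MI was narrow, and the value in Normal Ms1608 may be a failed estimate. The difference was 1.69 (SE 0.93, adjusted p 0.368 in limma) and 0.68 without that library (adjusted p 0.377). Parva, the widely expressed parvin, stood at 7.09, 5.38 and 3.44 FPKM across MI and 4.47, 2.39 and 0.0995 FPKM across Normal, with a difference of 1.16 (adjusted p 0.418 in limma) and of 0.51 without Normal Ms1608. Parvb had 10.0 FPKM in MI Ms1537 and at most 1.63 FPKM elsewhere, and Parvg, the blood-cell parvin, lay between 0.137 and 0.896 FPKM. Neither was tested.

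Tln1, talin, couples beta tails to actin and stood at 11.6, 2.12 and 4.56 FPKM across MI and 8.38, 5.32 and 6.23 FPKM across Normal. The groups overlapped. Its difference of -0.32 (95% interval -1.96 to 1.31, adjusted p 0.845 in limma) was the only negative value of the 21 as deposited, and turned to 0.15 without MI Ms1537. It was -0.35 without Normal Ms1608, -1.21 to -0.94 under the 3 scalings, and -1.25 with that omission and median-ratio scaling together (adjusted p 0.330). After median-ratio scaling of all 6 libraries, MI lay below Normal without overlap. Tln2 did not exceed 0.452 FPKM. Ptk2, focal adhesion kinase, stood at 4.54, 4.91 and 1.87 FPKM across MI and 3.51, 2.94 and 0.0455 FPKM across Normal. Pxn, the scaffold paxillin, stood at 0.864, 2.83 and 2.01 FPKM across MI and 1.41, 1.39 and 0.197 FPKM across Normal. Both overlapped between groups, differing by 0.78 and 0.55 (adjusted p 0.575 and 0.569 in limma), and by 0.11 and 0.21 without Normal Ms1608. Vcl, vinculin, which reinforces the talin link, was below the filter, at 0.440 FPKM or less. Its values in Normal Ms1537 and Ms1608, 6.89e-08 and 1.25e-08 FPKM, may be failed estimates.

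Other pathway genes came from a list of 32, of which 28 were tested. Of these, limma called 0, beside 0.00983% of all genes, and 2 had an unadjusted p below 0.05, both higher in MI, beside 16.1%. The median difference was 0.81 beside 0.78 for all genes, and 0.68 beside 0.83 without Normal Ms1608. Apbb1ip, an adaptor that recruits talin in leukocytes, stood at 14.2, 12.3 and 24.7 FPKM across MI and 1.75, 1.60 and 7.90 FPKM across Normal, a difference of 2.12 (adjusted p 0.252 in limma). Actn1, the actin crosslinker alpha-actinin, stood at 32.2, 47.4 and 16.6 FPKM across MI and 6.44, 5.98 and 11.1 FPKM across Normal, a difference of 1.83 (adjusted p 0.266 in limma) and of 2.08 without Normal Ms1608. For both, all MI libraries lay above all Normal libraries, as in 6 of the 28, beside 25% of all genes. Without Normal Ms1608, 2 of the 28 passed the threshold, beside 4.51% of genes: Apbb1ip at 2.69 (adjusted p 0.0304) and Cytip, a leukocyte adhesion regulator, at 3.28 (adjusted p 0.0210). Neither passed when any of the 3 scalings was added.

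Of 25 integrin ligands, 19 were tested and limma called 0, beside 0.00983% of all genes. At an unadjusted p below 0.05, 6 were higher in MI and 0 lower, beside 16.1% and 0.207% of all genes. The median difference was 1.63 beside 0.78 for all genes, and 1.07 beside 0.83 without Normal Ms1608. In that comparison limma called 0, beside 4.51% of genes. There 7 were higher and 1 lower at an unadjusted p below 0.05, beside 30.8% and 0.738% of genes. Postn, a matrix protein that binds Itgav receptors, stood at 309.7, 705 and 41.7 FPKM across MI and 14.3, 14.8 and 2.07 FPKM across Normal. Its difference was 4.54 (adjusted p 0.245 in limma) and 3.76 without Normal Ms1608 (adjusted p 0.0629). The fibrillar collagen chains Col1a1, Col1a2 and Col3a1, which are also in the fibroblast marker list, differed by 3.16, 3.17 and 3.40 (adjusted p 0.245, 0.247 and 0.247 in limma), and by 2.66, 3.42 and 3.69 without Normal Ms1608. For these 4 genes MI lay above Normal without overlap, as in 8 of the 19 ligands, beside 25% of all genes. Of the LFA-1 ligands, Icam1 stood at 3.38, 4.86 and 1.67 FPKM across MI and 1.64, 0.787 and 0.192 FPKM across Normal, separated only between 1.67 and 1.64 FPKM, and differed by 1.20 and without Normal Ms1608 by 0.92 (adjusted p 0.304 and 0.231 in limma). Icam2, an endothelial ligand and the 1 lower gene above, stood at 13.6, 37.5 and 15.9 FPKM across MI and 56.6, 47.6 and 4.41 FPKM across Normal, which overlap. It differed by -0.22 and without Normal Ms1608 by -1.32 (adjusted p 0.920 and 0.136 in limma). With that omission and median-ratio scaling together, Postn differed by 2.71, Col1a1 by 1.63, Col1a2 by 2.36 and Col3a1 by 2.63 (adjusted p 0.185, 0.330, 0.236 and 0.244 in limma). Icam1 then differed by 0.21, Icam2 by -2.37 and Col4a1 by -1.29 (adjusted p 0.811, 0.0976 and 0.235 in limma).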

How the data were processed

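RNA of 3 MI and 3 Normal sorted samples was amplified by T7 transcription before library preparation, per the labels' protocols. The authors deposited 1 table of FPKM values, for which STAR 2.4.2a, Cufflinks 2.2.1 and GRCm38 are named, per the submitters' processing notes. Annotation release and strand setting are not given in the sources used here. Genes with 1 FPKM or more in 3 or more libraries were tested on log2(FPKM + 1) with limma 3.58.1 (R 4.3.3, with a mean-variance trend), after the script was tested on simulated data. P-values were adjusted by Benjamini-Hochberg over all genes tested. A pseudocount of 1 understates changes of low genes. Depth was read from low values: 92.7% to 94.8% lay within 0.1 of a whole number of fragments, where even spread gives 20%, after 180 bases were taken off each length; that step came from a fit to the same values. The members had 25 of 228 values under 3 fragments, for counting error only. Shares and ratios were compared by exact permutation tests. Positions come from GENCODE M21. Every member could be named, and of the further lists up to 4 genes each, by lowest unadjusted p. Cytip, Icam1 and Icam2 fall outside that rule and were named after their values were seen. The members, lists and tests were chosen with earlier results of these data known. Alternatives were other pseudocounts, filters and scalings, no trend, a replicate block, other denominators and leaving out each library. Leaving out Normal Ms1608 together with a scaling was chosen after seeing the data.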

Additional observations from a re-analysis of the deposited data

How the results depend on the processing

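With all 6 libraries, 0 members and 1 gene passed the limma threshold under each planned pseudocount, filter and scaling, without the trend and with the replicate block. Leaving out 1 library gave 1 to 459 called genes and 0 to 6 called members, the high values being those without Normal Ms1608, and 2 genes passed without MI Ms1537. With a scaling added to that omission, by median ratio, upper quartile or quantiles, 3, 3, 2 genes and 0 members passed, and the members' median difference was -0.048, -0.056, -0.22. With all libraries that median, 0.83, became 1.44 and 0.38 with pseudocounts of 0.1 and 5, 0.49 with no filter, and 0.10, 0.34 and -0.024 under the 3 scalings. It ran from 0.68 to 0.95 when 1 library was left out. Signs turned with a pseudocount of 5 to -0.17 for Itgae. Signs turned under median-ratio scaling to -0.45 for Itgae, -0.046 for Itgb7, -0.39 for Itga1, -0.87 for Itga6, -0.054 for Itga2b, -0.86 for Itgb1, -0.45 for Fermt2 and -0.036 for Pxn. Signs turned under upper-quartile scaling to -0.097 for Itgae, -0.37 for Itga1, -0.54 for Itga6, -0.52 for Itgb1 and -0.35 for Fermt2. Signs turned under quantile scaling to -0.33 for Itgae, -0.67 for Itga1, -0.41 for Itga6, -0.14 for Itga9, -0.43 for Itga2b, -0.22 for Itgb1, -0.81 for Fermt2, -0.024 for Fermt3, -0.31 for Ptk2 and -0.52 for Pxn. Signs turned without Normal Ms1608, with median-ratio scaling to -1.32 for Itga1, -1.58 for Itga6, -0.048 for Itga9, -0.96 for Itga2b, -0.51 for Itgb1, -1.96 for Fermt2, -0.28 for Ilk, -0.37 for Parva, -0.75 for Ptk2 and -0.45 for Pxn. Signs turned without Normal Ms1608, with upper-quartile scaling to -1.33 for Itga1, -1.59 for Itga6, -0.056 for Itga9, -0.97 for Itga2b, -0.52 for Itgb1, -1.97 for Fermt2, -0.29 for Ilk, -0.37 for Parva, -0.76 for Ptk2 and -0.46 for Pxn. Signs turned without Normal Ms1608, with quantile scaling to -1.47 for Itga1, -1.33 for Itga6, -0.22 for Itga9, -1.01 for Itga2b, -0.29 for Itgb1, -1.90 for Fermt2, -0.30 for Ilk, -0.45 for Parva, -0.86 for Ptk2 and -0.61 for Pxn. Over the 6 omissions of 1 library, differences ran from 0.83 to 2.85 for Itgal, 0.30 to 2.38 for Itgam, 1.41 to 1.85 for Itgax, -0.59 to 1.58 for Itgae, 0.88 to 2.96 for Itgb2, 0.13 to 2.30 for Itgb7, 0.78 to 2.14 for Itga4, -0.46 to 0.85 for Itga1, -0.51 to 0.59 for Itga6, 0.43 to 1.10 for Itga9, 2.34 to 3.50 for Itgav, 1.00 to 2.10 for Itgb5, -0.36 to 1.58 for Itga2b, -0.15 to 0.69 for Itgb1, -0.86 to 0.15 for Tln1, -0.95 to 1.31 for Fermt2, 0.53 to 1.20 for Fermt3, 0.68 to 2.54 for Ilk, 0.51 to 1.66 for Parva, 0.11 to 1.16 for Ptk2 and 0.21 to 0.83 for Pxn. The cause of these changes was not tested. When the sum left out Itgb2 and Itgb7, the MI minus Normal share moved to 1.81 points for Itgb3, 0.153 for Itgb4 and -0.212 for Itgb6. Of these, Itgb4 reached at most 0.166 FPKM and Itgb6 at most 0.486 FPKM. By that sum the share of Itgb1 was lower, and that of Itgb5 higher, in every MI library than in any Normal library, which was not tested. Itga4 relative to 6 pan-leukocyte markers moved to a log2 difference of 0.77. Whether the same numbers in the titles pair the libraries was not settled. Correlations of the deviations of same-number libraries were -0.052, 0.098 and 0.087, none of them over the 0.1 set beforehand. Those of libraries with different numbers ran from -0.115 to 0.104. With 3 libraries per group these correlations cannot decide the question, and the main fit was unpaired. With the replicate block, 0 members and 1 gene passed, the lowest member adjusted p was 0.198 (0.245 without it), and no call changed.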

Other observations

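Partner chains were set side by side within each library, a comparison chosen after the values were seen and given without a test. The alpha partners of Itgb2 (Itgal, Itgam, Itgax and Itgad) summed to 36.4, 42.7 and 41.7 FPKM across MI and to 4.69, 4.99 and 87.1 FPKM across Normal. Itgb2 stood at 0.565 to 1.45 times that sum in the 6 libraries. Itgav stood at 13.2, 3.74 and 7.75 times the sum of its partners Itgb3, Itgb5, Itgb6 and Itgb8 in MI and at 4.09, 13.5 and 0.570 times in Normal, so it lay below its partners only in Normal Ms1608. Itgb1, which can also pair with Itgav, is not in that sum.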
